A study of Danio rerio with 10 samples.

Results

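The 9 genes described here are 8 cathepsins, the peptidases that digest protein inside lysosomes (ctsc, ctslb, ctsd, ctsba, ctsh, ctsz, ctsa and ctsk), and cst3, which encodes a cystatin, an inhibitor of one class of them. They were picked by symbol from the 14650 genes of the count table, and all 9 are in the table and passed the filter on low counts, as did 11871 genes in all. The genotype differences of ctsc, cst3 and ctslb were known when the genes were picked, so the values by genotype describe these 9 genes and are not tested. RNA came from whole zebrafish embryos of the 17 to 18 somite stage kept at 28 °C, in 2 groups of 5 libraries. One group is wild type of the ABTU strain. The other is a TPC2 mutant line, with a mutation in tpcn2, whose allele and strain background the labels do not state. The series' design text calls the libraries biological replicates, but does not say whether they are separate clutches, so p-values measure the spread between these libraries. Clutch, strain background and genotype cannot be told apart.

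Cathepsins are made as inactive precursors, sorted to the lysosome and matured there at acid pH. Most belong to the papain family of cysteine peptidases (B, C, H, K, L and Z), while cathepsin D is an aspartic peptidase and cathepsin A a serine carboxypeptidase. Cystatin C, the mammalian counterpart of cst3, is secreted and blocks papain-family enzymes but not cathepsins D or A. TPC2, the product of tpcn2, is a cation channel of the membrane of lysosomes and related acidic organelles. In zebrafish embryos cathepsin L of the ctslb type is a known product of the hatching gland, and cathepsins also take part in the breakdown of yolk protein.

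The libraries held 17890367 to 22498643 counted reads. tpcn2 was at 47.1 to 81.1 CPM (counts per 1000000 reads, with library sizes scaled by the TMM method) in the wild-type libraries and at 6.72 to 10.4 CPM in the mutant libraries, so every library went with its label. Wild-type replicate 1 stood apart from the other wild-type libraries on the second principal component, with a score of 33.3 against -17.0 to -0.71. Values without it are given for some of the results below. None of the 9 genes lies on the chromosome of tpcn2 in the RefSeq gene table.

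ctsc was the cathepsin with the largest difference between the genotypes. It encodes cathepsin C, or dipeptidyl peptidase I, which removes dipeptides from the amino end of proteins and in mammals activates the serine proteases of immune cell granules. In wild-type replicates 1 to 5 ctsc was at 1893, 1074, 2610.0, 2323 and 1791.5 CPM. In mutant replicates 1 to 5 it was at 122, 111, 119, 97.9 and 103 CPM. All wild-type libraries lay far above all mutant libraries, and the lowest wild-type library, replicate 2, was also the one farthest from the rest of its group. The means were 1938 ± 585 CPM and 111 ± 10.4 CPM (SD, n = 5), a 17.5-fold lower mean in the mutant, and the difference of mean log2 CPM, mutant minus wild type, was -4.07 ± 0.229 (SE). Each mutant library still held 1839 to 2342 reads of ctsc, enough to measure the low level well. In whole-embryo RNA, fewer cells of a type and less RNA per cell cannot be told apart, here and for every gene below.

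cst3 showed the opposite direction. In wild-type replicates 1 to 5 it was at 569.8, 513, 88.9, 195 and 331 CPM, and in mutant replicates 1 to 5 at 2361, 1836, 2442, 1988 and 2120.1 CPM. The mutant libraries were all above the wild-type libraries and close to one another, whereas the wild-type libraries were spread over a 6.41-fold range. The means were 339.5 ± 204 CPM in wild type against 2149 ± 253 CPM in mutant libraries (SD, n = 5), 6.33-fold higher in the mutant, and the mean log2 CPM was higher by 2.94 ± 0.50 (SE). The size of this difference depended on which wild-type library was counted, 2.53 without replicate 3 and 3.20 without replicate 1. A count model (edgeR) gave log2 fold changes of 2.66 for cst3, -4.13 for ctsc and 0.60 for ctslb. In the authors' deposited table the log2 fold change of cst3 was 1.73, against -3.61 for ctsc and 0.60 for ctslb. The submitters name DESeq2, but how those values were estimated with it is not stated.

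ctslb was higher in the mutant by a smaller amount. It encodes a cathepsin L, a strong endopeptidase, and its synonym hgg1 in the RefSeq table refers to the hatching gland. In wild-type replicates 1 to 5 ctslb was at 973, 1230.0, 1051, 1013 and 1136 CPM, and in mutant replicates 1 to 5 at 1547, 1659, 1777, 1683 and 1534 CPM. The groups did not overlap, and the spread within each was small. The means were 1081 ± 103 and 1640 ± 101 CPM (SD, n = 5), 1.52-fold higher in the mutant, with a difference of mean log2 CPM of 0.60 ± 0.0722 (SE). ctslb has close paralogs, and the RefSeq table lists a further gene named ctslb.4 near it, so reads may be split between copies.

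ctsz was the remaining member whose groups did not overlap. It encodes cathepsin Z, a carboxypeptidase of the papain family. In wild-type replicates 1 to 5 it was at 24.5, 18.3, 20.9, 24.8 and 21.8 CPM, and in mutant replicates 1 to 5 at 38.5, 37.9, 40.1, 29.8 and 35.2 CPM. Every mutant library was above every wild-type library, mutant replicate 4 by the least. Its means were 22.1 ± 2.69 and 36.3 ± 4.05 CPM (SD, n = 5), the mutant being 1.65-fold higher, and the difference of mean log2 CPM was 0.72 ± 0.11 (SE).

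**Figure D1:**
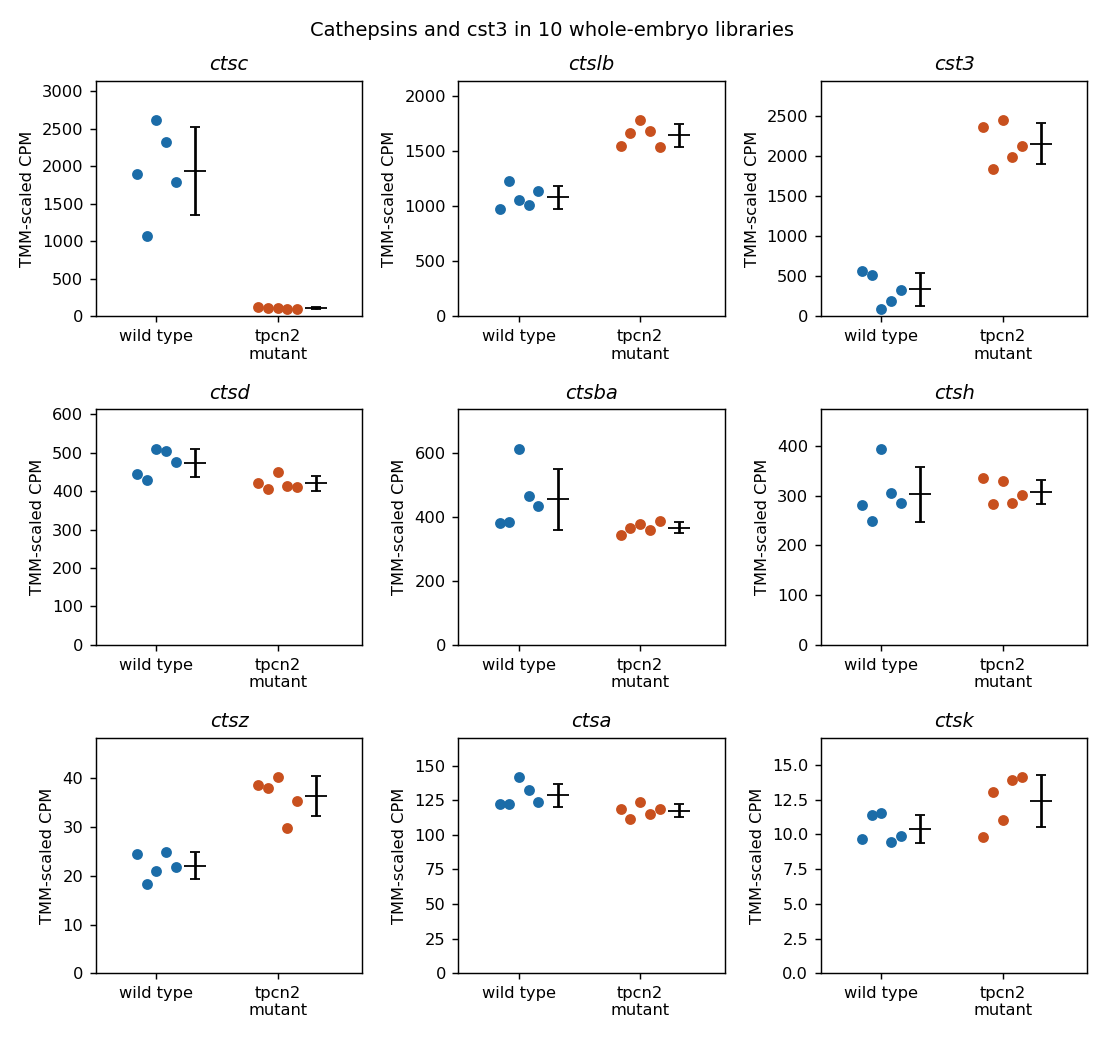
TMM-scaled CPM (linear axes from 0) of the 9 genes in each of the 10 libraries, 1 panel a gene; points are libraries in order of replicate number and the bar beside them is the mean ± SD. The genotypes separate for ctsc, ctslb, cst3 and ctsz and overlap for the other 5 genes.

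The other 5 cathepsins differed little between the genotypes, and their groups overlapped. ctsd, the aspartic peptidase, was at 445, 429, 510.3, 504 and 476 CPM in wild-type replicates 1 to 5 and at 419.9, 405, 451, 414 and 409.8 CPM in mutant replicates 1 to 5. Its mean log2 CPM differed by -0.17 ± 0.0564 (SE), and only the highest mutant library, replicate 3, lay within the wild-type range. ctsba, the B-type endopeptidase, was at 380.3, 383, 612, 465 and 434 CPM in wild type against 342, 364, 376, 357 and 387 CPM in mutant libraries, a difference of -0.30 ± 0.129. Wild-type replicate 3 was far above every other library for this gene, and without it the difference was -0.18. ctsa, the serine carboxypeptidase that in mammals also protects lysosomal galactosidase and neuraminidase, was at 129 ± 8.46 CPM in wild type against 117 ± 4.55 CPM in mutant libraries (SD, n = 5), a log2 difference of -0.13 ± 0.0485 (SE).

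ctsh, an aminopeptidase of the papain family, was at 281, 249, 394, 305 and 286 CPM in wild-type replicates 1 to 5 and at 336, 284, 330.3, 286 and 301 CPM in mutant replicates 1 to 5. All mutant libraries lay inside the wild-type range, and the log2 difference of 0.03 ± 0.121 (SE) was smaller than its error and changed sign without wild-type replicate 2 (-0.03). ctsk, known in mammals as the collagen-cleaving peptidase of osteoclasts, was the least counted of the 9 genes, with 176 to 302 reads per library. Its level was 10.4 ± 0.983 CPM in wild type against 12.4 ± 1.89 CPM in mutant libraries (SD, n = 5), a log2 difference of 0.24 ± 0.118 (SE), with mutant replicates 1 and 3 inside the wild-type range.

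Over the 9 genes, 3 were past an adjusted p of 0.05 in edgeR's quasi-likelihood test upward in the mutant (ctslb, cst3 and ctsz) and 3 downward (ctsc, ctsd and ctsba). The share of all 11871 tested genes past that threshold was 42.2%, with 20.6% upward and 21.6% downward. Groups did not overlap for 3 genes upward and 1 downward, against 28.7% of all tested genes in either direction, 13.7% entirely higher and 15.0% entirely lower in the mutant. Since the genotype contrast took part in the choice of the genes, nothing is read from these counts. The call for ctsd ended without wild-type replicate 3 or 4 or mutant replicate 2 (adjusted p = 0.0507 to 0.0541, edgeR), and that for ctsba without mutant replicate 1 (0.0607) or 4 (0.0521). ctsa passed without wild-type replicate 1 (0.0353) or 2 (0.0463) or with unscaled library sizes (0.041), and ctsk without mutant replicate 1 (0.0326). The median difference of mean log2 CPM was 0.03 over the 9 genes and 0.00148 over all tested genes. 2 of the 9 genes, ctsc and cst3, differed by more than 1 on the log2 scale, as did 5.69% of all tested genes.

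Read library by library, ctsc was lower and cst3 higher in every mutant library than in any wild-type library. The ratio of cst3 reads to ctsc reads, which depends on the lengths of both transcripts and so serves only to compare libraries, was 0.301, 0.478, 0.0341, 0.0841 and 0.185 in wild-type replicates 1 to 5. In mutant replicates 1 to 5 it was 19.4, 16.5, 20.5, 20.3 and 20.7. The ratio was at most 0.478 in the wild-type libraries and at least 16.5 in the mutant libraries. On the log2 scale it was -2.74 ± 1.51 in wild type against 4.28 ± 0.136 in mutant libraries (SD, n = 5), so the wild-type libraries differed among themselves by much more than the mutant libraries did. The reads of ctsc and cst3 added together were 2278 ± 439 CPM in wild type against 2260 ± 260 CPM in mutant libraries (SD, n = 5). The ranges were 1587 to 2699 CPM and 1947 to 2561 CPM. This sum was formed after the values of the single genes were seen and depends on transcript lengths, so nothing is read from its similar means.

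Within wild type the library with the most ctsc, replicate 3, had the least cst3, and the next highest in ctsc, replicate 4, was the next lowest in cst3. Replicate 2 had the least ctsc and the second highest cst3. Replicate 1 broke the pattern, since it had the most cst3 and a ctsc level in the middle of its group. Within the mutant no such opposition appeared, and replicates 1 and 3 were the highest for both genes. ctslb followed neither gene in wild type, where replicate 2 was highest and replicate 1 lowest, while in the mutant replicate 3 was highest for both ctslb and cst3. The ratio of ctslb to ctsc reads was 0.403 to 1.146 in wild type against 12.7 to 17.2 in mutant libraries, and that of cst3 to ctslb reads 0.0846 to 0.585 in wild type against 1.11 to 1.53 in mutant libraries. With 5 libraries a group, under the 6 needed for a correlation, and the genotypes in separate clusters, no correlation is given.

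**Figure D2:**
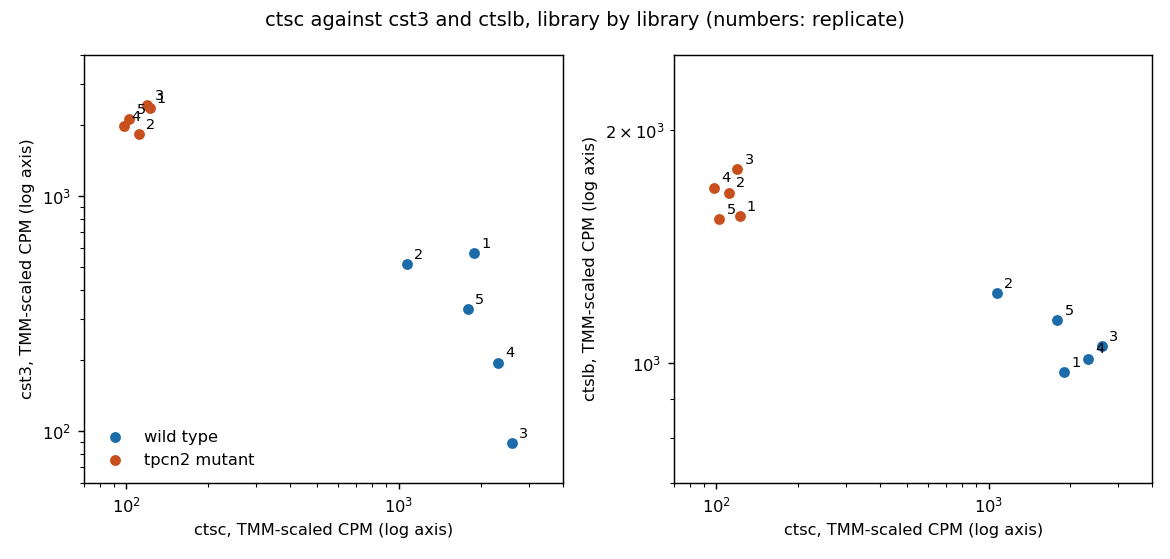
ctsc (x) against cst3 (left) and ctslb (right) in TMM-scaled CPM on log axes, 1 point a library with its replicate number. The wild-type libraries lie at 1074 to 2610.0 CPM of ctsc and spread from 88.9 to 569.8 CPM of cst3, and the mutant libraries form a tight group at 97.9 to 122 CPM of ctsc with 1836 to 2442 CPM of cst3.

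The spread of cst3 and ctsc in wild type was larger than that of most genes of at least 10 CPM. Among 8091 genes with a mean of at least 10 CPM, 9 had a larger SD of log2 CPM over the wild-type libraries than cst3 (1.104) and 112 had a larger one than ctsc (0.49), where the median SD was 0.126. In the mutant the SD was 0.171 for cst3 and 0.136 for ctsc, against a median of 0.0934, and 1025 and 1928 genes were more variable. ctsba (0.281), ctsh (0.247) and ctsz (0.179) also varied in wild type more than the median gene. ctslb (0.135) and ctsk (0.134) were slightly above the median, and ctsd (0.11) and ctsa (0.0929) below it. In the mutant ctsk (0.228) varied more than any other chosen gene.

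Wild-type replicate 3 was the highest wild-type library for 6 of the 9 genes, ctsc, ctsd, ctsba, ctsh, ctsa and ctsk. The share of all tested genes that were highest in that library was not computed, so nothing about cathepsins is read from this count. The summed level of the yolk syncytial layer markers, genes of the nutrient-exporting layer at the yolk surface, was highest in that library too. It was 25720, 27882, 36960, 32449 and 30829 CPM in wild-type replicates 1 to 5, an order exactly reverse to that of cst3 and equal to that of ctsba and ctsa. The same order held for tpcn2 and for ctssb.1, a cathepsin S gene. The summed hatching gland and myeloid markers were also highest in wild-type replicate 3, and the summed epidermis and periderm markers were lowest there. In the mutant libraries the sum of the yolk syncytial layer markers was 31535 to 35485 CPM, inside the wild-type range. Both that sum and cst3 were highest in mutant replicate 3 and next in mutant replicate 1, so the reverse order held in wild type only. None of ctsba, ctsa, tpcn2 and ctssb.1 had the order of that sum in the mutant libraries. The part of any of these sums in the wild-type spread was not tested.

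The gene order of the RefSeq table places mgme1, which encodes a nuclease of mitochondrial DNA maintenance, second before cst3. mgme1 was at 13.3, 10.99, 4.50, 5.87 and 8.93 CPM in wild-type replicates 1 to 5 and at 22.01, 19.8, 27.8, 22.9 and 23.0 CPM in mutant replicates 1 to 5. It was thus higher in every mutant library (edgeR log2 fold change 1.40, adjusted p = 1.63e-04), and it ranked the wild-type libraries in the same order as cst3. That order was shared with cst3 by 135 of the 8091 genes (1.67%) and reversed in 160 (1.98%), so sharing it is not particular to mgme1. The gene between them, zgc:163030, was lower in the mutant (-0.30, adjusted p = 0.00727), and on the other side macrod2 was at -0.06 (adjusted p = 0.783) and flrt3, a cell surface protein of the leucine-rich repeat type, was higher (0.32, adjusted p = 5.60e-05, all by edgeR).

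**Figure D3:**
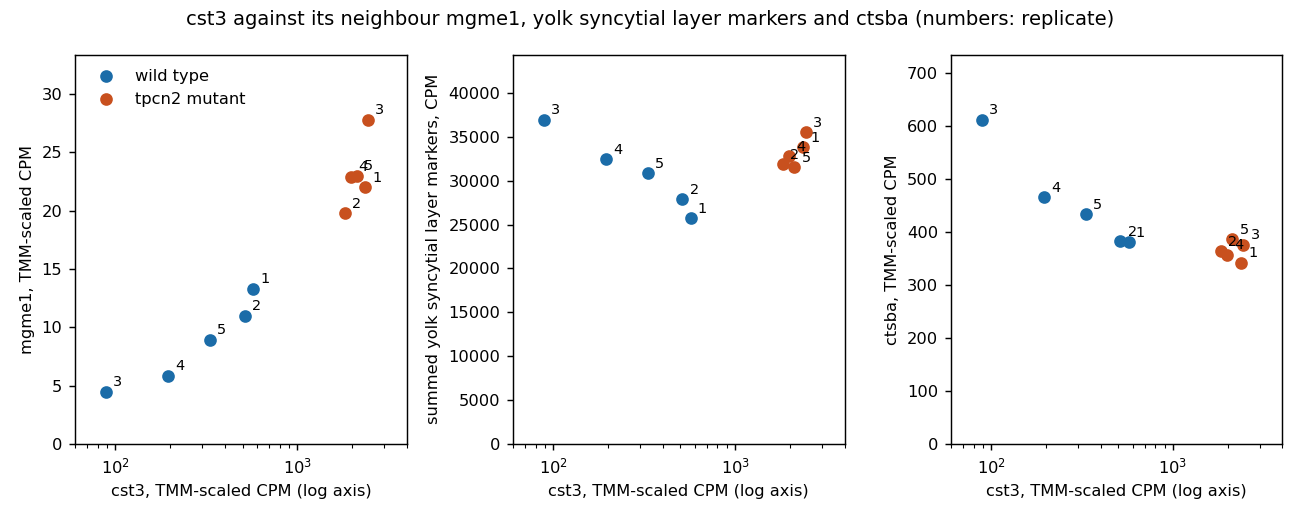
cst3 in TMM-scaled CPM (x, log axis) against mgme1, the summed yolk syncytial layer markers and ctsba (y, linear from 0), 1 point a library with its replicate number. In wild type mgme1 goes from 4.50 to 13.3 CPM in the order of cst3 and the marker sum goes the other way, from 36960 to 25720 CPM, while the mutant libraries lie together at high cst3.

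The neighbours of ctsc showed no difference of its size. actn4, an actin-crosslinking alpha-actinin, was at -0.11 on the log2 scale (edgeR adjusted p = 0.0516), and passed the threshold under DESeq2 (0.0364), limma-voom (0.047), library size without scaling (0.043), and with wild-type replicate 2 (0.026) or 3 (0.0496) left out. naalad2, a peptidase gene, was lower by a small amount (-0.26, adjusted p = 0.0125), and zgc:85932 (-0.05, adjusted p = 0.791) and chordc1a (-0.08, adjusted p = 0.778) did not pass. Next to ctslb, the ribonuclease P subunit gene rpp30 (0.50, adjusted p = 0.00125) and MGC174155 (1.36, adjusted p = 2.30e-05) were higher by edgeR. Its neighbours pcgf5b (0.41, adjusted p = 0.179) and wu:fa26c03 (-0.10, adjusted p = 0.0874) did not pass by edgeR. wu:fa26c03 passed without mutant replicate 3 (adjusted p = 0.0234).

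Genes with the most similar profiles over the 10 libraries were sought by the root mean square difference of log2 CPM after each gene's own mean was subtracted. Only genes of at least 10 CPM whose symbol was not a clone name (a symbol with a colon) were compared. They were chosen for that likeness, so their values are a description. For ctsc they were got1, a cytosolic aspartate aminotransferase gene, at a distance of 0.432, gsnb, a gelsolin gene, at 0.452, and the fucosyltransferase gene fut9d at 0.657. got1 was at 134 ± 22.0 CPM in wild type against 13.1 ± 3.39 CPM in mutant libraries, and like ctsc it was lowest in wild-type replicate 2. For cst3 they were pdlim2 (0.489), pigp (0.663) and wfikkn1 (0.734). For ctslb they were epcam (0.0592), the gene of an epithelial adhesion protein, the retinol transporter gene stra6 (0.068) and the G protein gene gna14 (0.0685).

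Other listed cathepsins and peptidases, most of them lysosomal and none among the 9 genes, moved in both directions and by less than ctsc. This list and the other gene lists were also chosen with earlier results of these data known, so their counts are a description. Of 22 listed genes 16 were in the table and 14 were tested. 4 rose and 5 fell (edgeR, adjusted p under 0.05 over all tested genes), 64.3% against 42.2% of all tested genes, with a median log2 fold change of -0.19 against -0.00114. The cathepsin S genes ctssb.1 (550.0 ± 121 to 755 ± 67.4 CPM; log2 fold change 0.46, adjusted p = 0.0083) and ctssb.2 (2.60 ± 0.359 to 4.17 ± 0.515 CPM; 0.69, adjusted p = 0.00274) rose. ctssb.1 and ctssb.2 are neighbours of ctsk in the gene order and close paralogs of each other. The prolylcarboxypeptidase gene prcp (0.58, adjusted p = 0.00758) and the carboxypeptidase gene cpvl (0.19, adjusted p = 0.0287) also rose by edgeR. The call for cpvl ended without wild-type replicate 2, 3 or 5 or mutant replicate 1 or 3 (adjusted p = 0.0577 to 0.0788).

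Among those that fell, ctsll, a cathepsin L paralog of ctslb, went from 857 ± 72.8 to 655.5 ± 38.7 CPM (SD, n = 5; edgeR log2 fold change -0.39, adjusted p = 1.88e-04), the direction opposite to that of ctslb. ctsla, the other cathepsin L gene of that abundance, was at 650.3 ± 82.1 and 665.5 ± 102 CPM and did not pass (adjusted p = 0.82). lgmn, which encodes legumain, an asparaginyl endopeptidase that trims cathepsin precursors, fell from 183 ± 6.51 to 143 ± 7.76 CPM (-0.36, adjusted p = 4.86e-05). The serine carboxypeptidase gene scpep1 (-0.54, adjusted p = 2.59e-04) and the bleomycin hydrolase gene blmh (-0.27, adjusted p = 6.78e-04) fell too, and so did the dipeptidyl peptidase gene dpp7 (-0.24, adjusted p = 0.0403), whose call ended without wild-type replicate 3, 4 or 5 or any 1 mutant replicate (adjusted p = 0.0509 to 0.102). ctsf (-0.16, adjusted p = 0.086), which passed without mutant replicate 3 (0.0324) and with the replicate number as a block (0.0337), tpp1 (0.02, adjusted p = 0.782) and napsa, listed as zgc:63831 (-0.22, adjusted p = 0.223), did not pass by edgeR.

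The other cystatins showed no rise of the size seen for cst3. Of 12 listed cystatin and fetuin genes 5 were in the table and 4 were tested. 0 rose and 2 fell by edgeR (adjusted p under 0.05), 50.0% called against 42.2% of all tested genes. DESeq2 and limma-voom each called 0 upward and 3 downward. By edgeR 1 gene, kng1, was upward at an unadjusted p under 0.05. cst14b.1 was at 1854, 1690.3, 1544, 2131 and 1616 CPM in wild-type replicates 1 to 5 and at 1380.3, 1291, 1505, 1268 and 1387 CPM in mutant replicates 1 to 5. Its mutant libraries were all below its wild-type libraries (edgeR log2 fold change -0.37, adjusted p = 0.00157). zgc:56530, listed in the RefSeq table as cst14a.2, fell by less (-0.18, adjusted p = 0.0347), and its call ended without wild-type replicate 3, 4 or 5 or mutant replicate 2, 4 or 5 (0.056 to 0.0899). The kininogen gene kng1, a plasma protein with cystatin domains, was at 114 ± 17.4 and 133 ± 13.2 CPM (0.22, adjusted p = 0.079), and passed without wild-type replicate 3 (0.0209) and with the replicate number as a block (0.0448).

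**Figure D4:**
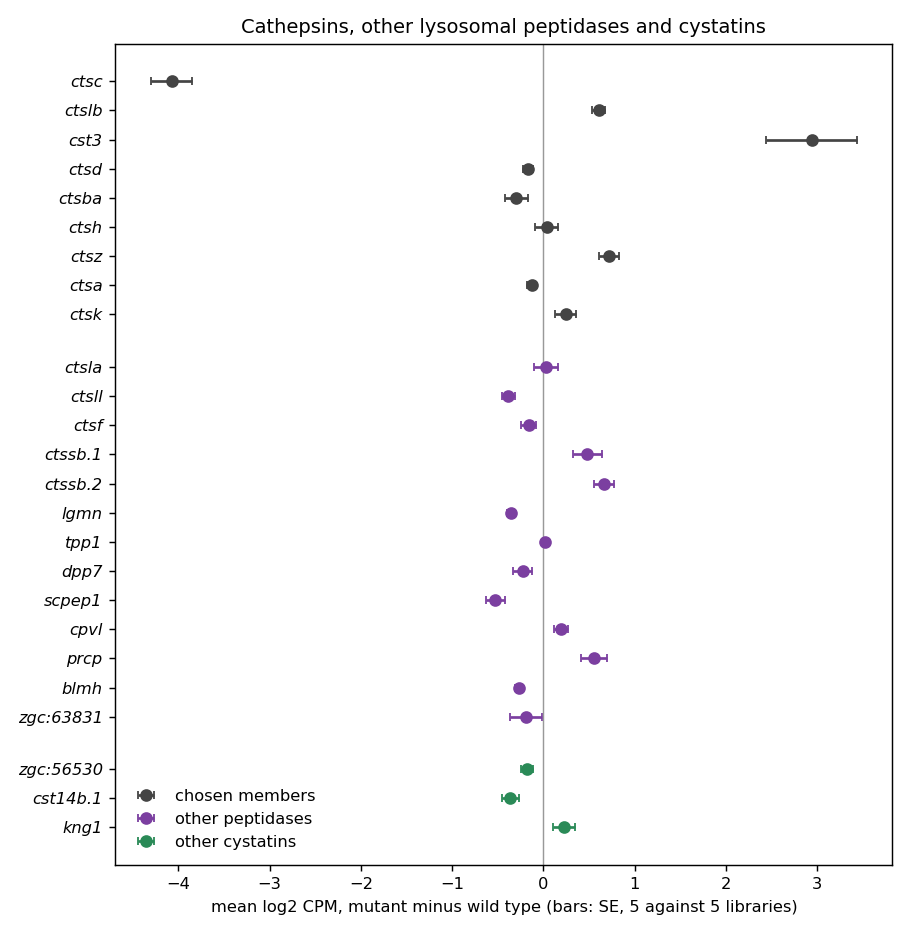
Difference of mean log2 CPM between mutant and wild type (x; points, with SE bars from 5 against 5 libraries) for the 9 chosen genes, the other listed peptidases and the other cystatins with a mean of at least 1 CPM. ctsc at -4.07 and cst3 at 2.94 lie far outside the range of the other genes shown, which is -0.525 to 0.72.

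Listed genes for the processing and sorting of lysosomal proteins were called about as often as all genes. By edgeR (adjusted p under 0.05) 4 of 20 rose and 5 fell, 45.0% against 42.2% of all tested genes. gnptab, the phosphotransferase gene that builds the mannose 6-phosphate tag, rose (0.33, adjusted p = 4.22e-04), and nagpa, whose enzyme uncovers that tag, fell from 19.8 ± 1.92 to 8.62 ± 2.19 CPM (-1.19, adjusted p = 1.99e-05). The proprotein convertase gene furina (0.55, adjusted p = 2.81e-04) and the sorting receptor gene sort1b (0.23, adjusted p = 0.0182) rose. scarb2, which encodes the lysosomal membrane protein LIMP-2 (-0.74, adjusted p = 3.70e-06), and the clathrin adaptor subunit gene ap1s2 (-0.58, adjusted p = 5.48e-07) fell. sort1b lost its call without mutant replicate 4 (0.0536).

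Of 17 tested genes of the MiT/TFE factors, which switch on lysosomal genes, and their regulators at the lysosome surface, 8 rose and 1 fell (52.9% against 42.2%; edgeR, adjusted p under 0.05), with a median log2 fold change of 0.23. tfeb, one of those factors, was at 3.89 ± 0.72 CPM in wild type against 10.6 ± 1.603 CPM in mutant libraries (1.44, adjusted p = 5.17e-06). The folliculin gene flcn (0.66, adjusted p = 2.95e-05) and the Rag GTPase gene rragca (0.52, adjusted p = 1.31e-04) rose, and the Rag GTPase gene rraga fell (-0.22, adjusted p = 0.00176). 2 genes fell without wild-type replicate 3 or 5 and under DESeq2.

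Markers of cell types rich in cathepsins gave the following values beside these differences. Of 9 tested hatching gland markers other than ctslb, 4 rose and 2 fell (66.7% against 42.2% of all tested genes; edgeR), among them the hatching enzyme gene he2 (1.06, adjusted p = 0.0123) and the transcription factor genes prdm1a (0.40, adjusted p = 4.17e-04) and foxa3 (0.35, adjusted p = 0.0035) upward, and the tetraspanin gene cd63 (-0.31, adjusted p = 1.68e-04) and tmprss13b (-1.28, adjusted p = 0.00866) downward. Their summed level was 2113 to 2371 CPM in wild type against 2076 to 2473 CPM in mutant libraries, overlapping. npsn had no reads. Without wild-type replicate 1 the log2 fold change of he2 was 1.42 (adjusted p = 3.23e-04, edgeR). tmprss13b had 13 to 39 reads in the wild-type libraries and 6 to 14 in the mutant libraries, and its groups overlapped. Of 16 tested myeloid markers, genes of early macrophages and neutrophils, 2 rose and 4 fell (37.5% against 42.2%); 5 rose without wild-type replicate 1, and 4 when either wild-type replicate 3 or mutant replicate 4 was omitted. The NADPH oxidase gene cybb (0.75, adjusted p = 0.0027) and the transcription factor gene spi1b (0.44, adjusted p = 0.00533) rose, and the plastin gene lcp1 (-2.26, adjusted p = 7.54e-07), cyba (-0.86, adjusted p = 6.38e-05) and rac2 (-0.47, adjusted p = 2.29e-04) fell, by edgeR. The myeloid sum was 291 to 344 CPM in wild type against 298 to 334 CPM in mutant libraries, and none of the markers in the table was without reads. These ranges overlapped, and whether cell numbers had a part in the differences of the 9 genes was not tested. Such sums are weighted to their most counted genes. lcp1, at a mean of 23.3 CPM in wild type against 4.85 CPM in mutant libraries, was a small part of the myeloid sum.

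Of 27 tested yolk syncytial layer markers 8 rose and 4 fell by edgeR (44.4% against 42.2% of all tested genes), and 13 rose without wild-type replicate 3 or with the replicate number as a block. The retinol-binding protein gene rbp4l (1.19, adjusted p = 7.97e-08), the antitrypsin gene serpina1 (0.74, adjusted p = 1.07e-04) and the apolipoprotein gene apoa4b.2 (0.44, adjusted p = 7.63e-04) rose, and the apolipoprotein genes apoa2 (-0.79, adjusted p = 2.52e-06) and apoc1l (-0.37, adjusted p = 0.00341) and the fibrinogen gene fgg (-0.68, adjusted p = 9.12e-05) fell. Of 34 tested epidermis and periderm markers 8 rose and 9 fell by edgeR (50.0% against 42.2%), and their sum was 40736 to 47181 CPM in wild type against 40562 to 44742 CPM in mutant libraries. The claudin gene cldne (0.54, adjusted p = 9.24e-06), epcam (0.58, adjusted p = 1.32e-05) and the desmocollin gene dsc2l (0.48, adjusted p = 2.61e-05) rose, and the annexin gene anxa1b (-2.03, adjusted p = 8.13e-12), icn (-2.69, adjusted p = 7.39e-07) and the keratin gene cyt1 (-0.75, adjusted p = 1.69e-06) fell, by edgeR; cki had no reads. Their part in the differences of the 9 genes was not tested.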

How the data were processed

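Per the submitters' processing notes, cutadapt 3.4 trimmed the reads, STAR 2.7 aligned them and DESeq2 1.30.0 was used; the notes list the builds mm10 and danRer10 with no role for either. How reads were counted, with which annotation and whether by strand, is not given in the sources used here, so reads of overlapping genes cannot be told apart. The authors deposited raw counts per gene symbol for 10 libraries, and a second table with log2 fold changes of mutant against wild type and their errors, per the file headers.

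The counts were filtered with edgeR's filterByExpr (11871 of 14650 genes kept), library sizes were adjusted by TMM, and the test was that of edgeR 4.0.16 (glmQLFit, glmQLFTest; R 4.3.3), in a model with no term but genotype, Benjamini-Hochberg adjustment over all tested genes, threshold 0.05. The steps were tested on simulated data. Differences of mean log2 CPM used a prior count of 2, and their SE the spread of 5 libraries a group. The 9 genes and the 8 other gene lists were chosen with earlier results of these data known; 153 of 191 list entries were in the table. All tested genes of at least 1 CPM are named for the other peptidases and cystatins, and up to 3 called genes in each direction, smallest p first, for the other lists. Neighbours (2 on each side) come from the RefSeq gene table of GRCz12tu, which matched 14366 symbols and served to give names and the order of genes, no coordinates. Similar profiles (3 per gene) were sought among genes of at least 10 CPM, leaving out symbols with a colon, which are clone names. The alternatives were limma-voom (limma 3.58.1), DESeq2 1.42.0, RLE size factors, unscaled library sizes, no filter or one at a mean of 1 CPM, a block for the replicate number, a prior count of 0.5 and the omission of each library. No pair of libraries agreed within counting noise (chi-square per degree of freedom at least 5.74).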

Additional observations from a re-analysis of the deposited data

Results flagged for a closer look

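In 156 sets of 5 libraries (each named gene in each genotype), 9 held a library whose gap to the nearest other was a large part of the range of its group, by Dixon's 95% critical value of 0.71, which chance passes in about 1 of 20 sets. None of them was one of the 9 chosen genes. In wild-type replicate 1 chordc1a, a neighbour of ctsc, was at 24.2 CPM and in the remaining wild-type libraries at 11.4 to 14.03 CPM, gsnb was at 117 CPM against 98.8 to 104 CPM, and scarb2 was at 169 CPM against 201 to 212 CPM. In wild-type replicate 3 pdlim2, the nearest to cst3 in profile among the genes compared, was at 0.91 CPM (17 reads) against 4.89 to 6.09 CPM, and wfikkn1 was at 4.98 CPM against 8.98 to 10.5 CPM. Both were chosen for a profile like that of cst3. As cst3 was also lowest in that library, the shared low value is no separate observation. In wild-type replicate 4 prcp was at 5.51 CPM against 3.86 to 4.29 CPM, and wu:fa26c03, a neighbour of ctslb, at 966 CPM against 923.5 to 934 CPM. In wild-type replicate 2 fut9d was at 38.0 CPM against 24.4 to 28.0 CPM. In mutant replicate 3 anxa1b was at 34.4 CPM against 39.6 to 41.7 CPM.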

How the results depend on the processing

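Over 18 alternatives the differences of ctsc (-4.27 to -3.95, log2), cst3 (2.53 to 3.20), ctslb (0.57 to 0.65) and ctsz (0.66 to 0.79) kept their sign. The groups of ctsc, cst3 and ctslb did not overlap under RLE size factors, unscaled library sizes or the other filter settings. The remaining alternatives used the same CPM or only left out a library, so they could hardly produce an overlap. The small differences of ctsd, ctsba, ctsa and ctsk kept their sign too, and that of ctsh did not; some calls of ctsd, ctsba, ctsa and ctsk changed, as given above. All genes called numbered 2146 to 2611 upward and 2317 to 2701 downward when 1 library was left out. Without 1 library the calls ranged from 0 to 1 upward and 1 to 3 downward for the other cystatins, 1 to 2 downward for the MiT/TFE list, 2 to 5 upward for myeloid markers and 6 to 13 upward for yolk syncytial layer markers. DESeq2 called 2 MiT/TFE genes downward, and a mean CPM of at least 1 left 1 hatching gland marker downward. The cause of the other changes was not tested. Same-numbered libraries of the 2 genotypes did not deviate together (correlations of -0.06 to 0.08 over 5 numbers, 2 of which matched their own number best). These values cannot show whether same-numbered libraries were collected together. With the replicate block 2378 genes were called upward and 2451 downward, 1 other cystatin upward and 13 yolk syncytial layer markers upward. ctsk had the fewest reads of the 9 genes, and cst3 the largest SE.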

Other observations

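The reads of the 8 cathepsins added together were 4411 ± 693 CPM in wild type against 3009 ± 129 CPM in mutant libraries (SD, n = 5), and without ctsc they were 2472 ± 181 CPM and 2899 ± 125 CPM. ctsc held 30.5 to 48.8% of the reads of these 8 cathepsins in the wild-type libraries and 3.27 to 4.15% in the mutant libraries. Other cathepsins are not counted in these shares, among them ctsll, ctsla and ctssb.1 at means of 857, 650.3 and 550.0 CPM in wild type. In the mutant, ctslb, cst3 and ctsc together made up 3900.0 ± 289 CPM, against 3359 ± 351 CPM in the wild type. These sums were formed after the values of the single genes were seen and depend on transcript lengths, so they compare libraries and not genes.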
